A study of Mus musculus with 18 samples.

Results

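Corn oil gavage controls were compared with feed controls, both without a test chemical, by gene expression in liver. The 6 arrays were chosen by their sample titles, 3 from corn oil gavage controls and 3 from feed controls, out of the 18 arrays of the series. All mice were female B6C3F1, a hybrid laboratory strain used in rodent carcinogenicity testing, and they were 5 weeks old when the 13 weeks of exposure began and 18 weeks old by the labels. The corn oil gavage controls (animals 22, 24 and 25) were given 5 ml/kg of corn oil by stomach tube on 5 days per week. The feed controls (animals 27, 28 and 29) ate rodent chow, and the feed schedule ran on 7 days per week. The other 12 arrays came from mice given 2,3-benzofuran at 240 mg/kg by gavage (the schedule and 5 ml/kg volume were those of the corn oil control), or 1,5-naphthalenediamine at 2000 ppm, N-(1-naphthyl)ethylenediamine dihydrochloride at 2000 ppm or pentachloronitrobenzene at 8187 ppm in feed, with 3 animals each. Because the control groups differ in the oil, in the gavage procedure and in the schedule at once, these cannot be told apart. Each animal had 1 Affymetrix Mouse 430_2 array, and 12169 of the 18193 genes named on it passed the filter on low signal and were tested.

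Corn oil is a triglyceride oil rich in unsaturated fatty acids and in plant sterols, and it is a common vehicle for chemicals that do not dissolve in water. The liver makes cholesterol from acetyl-CoA through mevalonate, squalene and lanosterol, and the enzymes of this chain are switched on together by the transcription factor SREBP-2 when sterol in the endoplasmic reticulum runs low. Fatty acids act in the liver through PPAR-alpha, which turns on genes of fatty acid oxidation, and through suppression of SREBP-1c, which drives fatty acid synthesis.

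All values are log2 signals, so a difference of 1 is a factor of 2 in signal, and differences are corn oil gavage control minus feed control with their standard error (SE) from a model over the 18 arrays. Array values are given in the order of the animals above. Correlations between arrays over the genes tested were 0.991 to 0.994 among the corn oil gavage controls, 0.986 to 0.990 among the feed controls and 0.985 to 0.992 between the groups. Feed control 29 stood apart: its score on the first principal component of the 6 arrays (32.2% of the variance) was 27.3, against -8.27 to -0.41 in the other 5, and the 75th percentile of its signals was 6.10, against 6.22 to 6.26. The RNA integrity numbers were 8.8, 7.4 and 8.8 in the corn oil gavage controls and 8.8, 8.8 and 9.1 in the feed controls. An index of clock genes, the mean standardized level of Per1, Dbp and their like minus that of Arntl, Npas2 and their like, was -0.84, 2.13 and 2.63 in the corn oil gavage controls, against -1.52, -1.14 and 0.75 in the feed controls, so corn oil gavage controls 24 and 25 stood above every feed control and animal 22 stood among them.

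All genes that passed the test were higher in the corn oil gavage controls. By limma with Benjamini-Hochberg adjustment over the 12169 genes, 15 were called higher (0.123% of those tested) and 0 lower (0%), at an adjusted p below 0.05. With another scaling of the same arrays the count was 8 higher after quantile normalization and 8 after centring each array, with 0 lower in both, and with only the 6 control arrays in the fit it was 6 higher and 0 lower. At an unadjusted p below 0.05, 898 genes were higher and 254 lower, together 1152 of the 12169 tested. The 3 arrays of one group lay wholly to one side of the other 3 in 1349 genes (11.1%), of which 955 were higher and 394 lower. The median difference of all genes was 0.04, and 60.3% of them had a difference above 0. The called genes had a median difference of 0.81, and 4 of them differed by at least 1. They fell into enzymes of cholesterol synthesis (Sqle, Fdps, Cyp51 and Nsdhl), a carrier of cholesterol (Stard4), other lipid, retinoid and electron transfer enzymes (Cers6, Rdh11 and Cyb5r3) and a mixed remainder (Nipal1, Bid, Dclk3, Vegfb, Gstm2, Gamt and Aldoc). The count moved with single animals: it was 20 higher and 3 lower without corn oil gavage control 22, 5 and 0 without 24, 4 and 0 without 25, 82 and 1 without feed control 27, 3 and 0 without 28, and 13 and 3 without 29. Nipal1, Bid and Gstm2 stayed called in all 6 of these fits, Nsdhl in 5, Rdh11 in 4, Dclk3 and Stard4 in 3, and each of the others in 1 or 2.

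**Figure D1:**
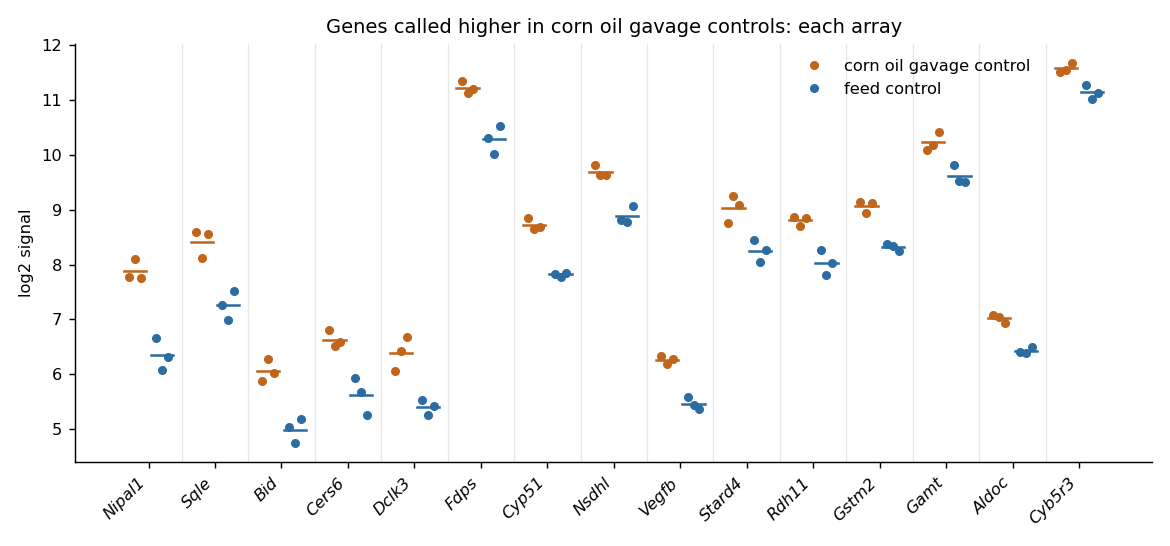
Log2 signal (vertical axis) of the 15 called genes (horizontal axis, by size of the difference within the first 12 and then the other 3), with 1 point per array and a bar at the mean of each group of 3, corn oil gavage controls left of feed controls. In each gene the lowest corn oil gavage control array lies above the highest feed control array.

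Cholesterol synthesis held the most called genes of the gene groups examined. Of the 20 enzymes listed 17 were measured, 4 were called higher (23.5%, against 0.123% of all genes) and 0 lower. All 17 differences were positive (60.3% over all genes), from 0.19 to 1.16, with a median of 0.70 beside 0.04 over all genes. The arrays of the groups did not overlap in 13 of the 17, against 11.1% of all genes. Hepatocyte markers as a whole had a median difference of 0.01 and none of the 12 was called.

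Sqle (probe set 1415993_at, chromosome 15) encodes squalene epoxidase, which adds oxygen to squalene to form squalene epoxide. Its log2 signal was 8.59, 8.11 and 8.55 in the corn oil gavage controls, against 7.27, 6.99 and 7.51 in the feed controls. The groups were well apart, with corn oil gavage control 24 the lowest of its group. The difference was 1.16 ± 0.216, a 2.24-fold higher signal (adjusted p = 0.0345). Fdps (1423418_at, chromosome 3), the synthase of farnesyl diphosphate upstream of squalene, had 11.34, 11.14 and 11.21 in the corn oil gavage controls, against 10.31, 10.02 and 10.52 in the feed controls. It was 1.92-fold higher (0.94 ± 0.157; adjusted p = 0.0162), with an SD of 0.10 among the corn oil gavage controls and 0.25 among the feed controls.

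Cyp51 (1450646_at, chromosome 5) demethylates lanosterol, the first step after the sterol ring system is closed. It had 8.85, 8.66 and 8.68 in the corn oil gavage controls and 7.84, 7.78 and 7.85 in the feed controls, with tight values in both groups. The signal was 1.87-fold higher (0.91 ± 0.156; adjusted p = 0.0213), and a second probe set of the gene differed by 0.98. Nsdhl (1416222_at, chromosome X), a dehydrogenase that acts later in removing the methyl groups of lanosterol, had 9.82, 9.64 and 9.62 in the corn oil gavage controls, against 8.81, 8.78 and 9.07 in the feed controls. It was 1.75-fold higher (0.81 ± 0.121; adjusted p = 0.00746), the smallest adjusted p of the enzymes measured here.

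The other enzymes before squalene were not called. Idi1, which isomerises the isoprenoid building unit, came nearest to the threshold, with 9.87, 9.43 and 9.76 in the corn oil gavage controls and 8.77, 8.79 and 8.91 in the feed controls (0.87 ± 0.189; adjusted p = 0.0902). Fdft1, squalene synthase, differed by 0.84 ± 0.209 (adjusted p = 0.131), and its values of 9.95, 9.79 and 9.87 in the corn oil gavage controls lay above the feed controls, whose highest was 9.14 and lowest 8.95. The kinases Pmvk and Mvk differed by 0.70 ± 0.187 (adjusted p = 0.175) and 0.29 ± 0.162 (adjusted p = 0.614). Hmgcs1, the synthase of HMG-CoA, and Mvd, the decarboxylase of the mevalonate branch, overlapped between the groups. Hmgcs1 had 11.93, 11.25 and 11.72 in the corn oil gavage controls, against 11.37, 11.33 and 11.04 in the feed controls (0.39 ± 0.235; adjusted p = 0.642). In Mvd only corn oil gavage control 22, at 7.61, was well above the rest: the group's other arrays had 6.40 and 6.56, against 6.44, 6.32 and 6.01 in the feed controls (0.60 ± 0.369; adjusted p = 0.645).

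After squalene epoxide, Lss, which closes the rings to form lanosterol, differed by 0.70 ± 0.186 (adjusted p = 0.172). Msmo1, the methyl sterol oxidase, differed by 0.80 ± 0.228 (adjusted p = 0.208), and Dhcr7, the reductase that makes cholesterol in the last step of one branch, by 0.83 ± 0.181 (adjusted p = 0.0902). None of these 3 overlapped between the groups. Dhcr7 had 9.79, 9.62 and 9.95 in the corn oil gavage controls, against 9.16, 8.75 and 8.96 in the feed controls. Smaller differences were measured in the sterol reductase Tm7sf2 (0.46 ± 0.104; adjusted p = 0.0922), the desaturase Sc5d (0.42 ± 0.124; adjusted p = 0.231), the reductase Hsd17b7 (0.20 ± 0.133; adjusted p = 0.673) and the isomerase Ebp (0.19 ± 0.0814; adjusted p = 0.458). The last 2 overlapped between the groups.

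**Figure D2:**
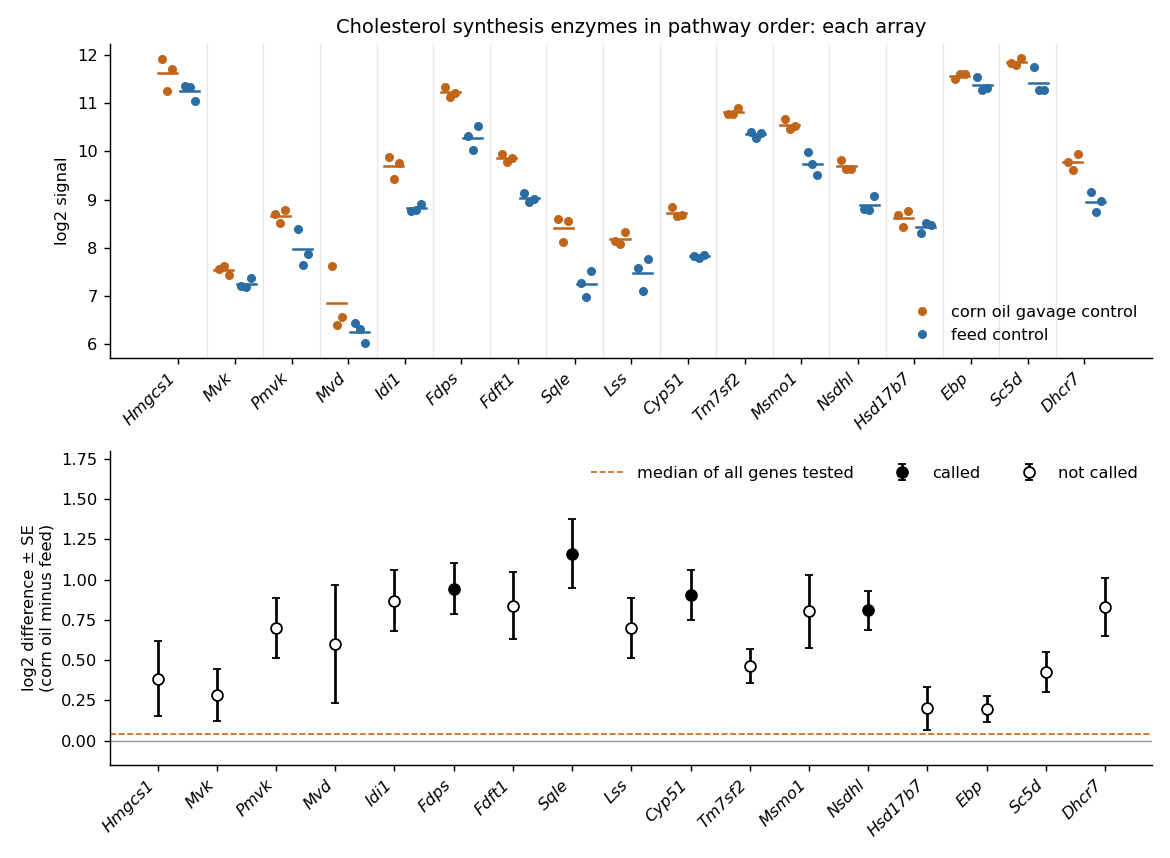
Upper panel, log2 signal of the 17 measured cholesterol synthesis enzymes in pathway order, with 1 point per array and a bar at the group mean, corn oil gavage controls left of feed controls. Lower panel, the difference with its SE (3 arrays per group), filled where called, all 17 above 0 and from 0.19 to 1.16, with the median of all genes tested (0.04) as a dashed line.

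The number of called enzymes depended on the arrays and the scaling. It was 1 without corn oil gavage control 22, 24 or 25 (1 in each fit), 7 without feed control 27, 0 without feed control 28 and 3 without feed control 29. It was 2 with each array centred on its median and 0 after quantile normalization between arrays. Adding the clock index as a covariate gave 5. The median difference of the enzymes lay between 0.62 and 0.83 in all of these settings.

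In the other gavage against feed contrast of the series, 2,3-benzofuran gavage minus the mean of the 3 feed chemicals, which shares no array with the control comparison, 855 genes were called higher and 376 lower (10.1%). The split depended on the scaling: it was 783 higher and 587 lower after quantile normalization and 763 higher and 627 lower after centring, and array weights gave 1442 higher and 718 lower. Route and chemical cannot be told apart in it. There 0 of the 17 cholesterol enzymes were called higher and 2 lower, with a median difference of -0.16. Sqle differed by -0.16 ± 0.176 (adjusted p = 0.635) and Nsdhl by -0.32 ± 0.0986 (adjusted p = 0.048). Fdps differed by 0.24 ± 0.128 (adjusted p = 0.257) and Cyp51 by -0.18 ± 0.127 (adjusted p = 0.418).

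The promoters of these enzymes are shown because SREBP-2 acts through promoter sequences, a sterol regulatory element together with nearby sites for NF-Y, which binds the CCAAT box. RefSeq promoter windows on GRCm38.p6, of 300 bases, with 250 before each annotated start and 50 from the start on, were found for 14 of the 17 enzymes and 10 of the 15 called genes. The enzymes without a window were Fdft1 and the called Sqle and Fdps, so the shares below do not cover them. The inverted CCAAT box ATTGG, read on both strands, was in at least 1 window of 14 of the 14 enzymes (100%) and of 6 of the 10 called genes, against 41.06% of the 27025 genes in the table, and in 14 of the 17 windows of the enzymes (82.35%), against 37.41% of the 32851 windows of the table. This short motif is frequent in other lists too: it was in 75% of the 16 core clock genes and 68.42% of the 19 fatty acid and triglyceride synthesis genes with a window. The sterol regulatory element was searched for only as an exact match to TCACNCCAC, where N is any base. This match was in 1 of the 14 enzymes, Hmgcs1, and in 1 called gene, Aldoc. Of all genes with a window 1.436% had it, and of all windows 1.242%. Variants of the element were not searched for. The other promoters, that of Cyp51 included, were therefore not shown to lack a sterol regulatory element. The motifs do not overlap in the stretches shown, and a match describes the letters only. The 150 bases before the start are given 5′ to 3′ in the direction of the gene. Cyp51 (chr5:4104698-4104847, minus strand) and Nsdhl (chrX:72918371-72918520, plus strand) are shown as called enzymes. Hmgcs1 (chr13:119690201-119690350, plus strand) is shown as the enzyme with the exact match to TCACNCCAC. Nipal1 (chr5:72647646-72647795, plus strand) and Aldoc (chr11:78322923-78323072, plus strand) are shown as called genes outside the pathway. Capitals mark exact matches to TCACNCCAC and to the inverted CCAAT box. The E-box CACGTG, D-box TTANGNAA and RORE NTAGGTCA were also searched for and are not marked. They were in 21.43%, 7.143% and 7.143% of the 14 enzymes, against 8.093%, 13.09% and 2.949% of all genes in the table.
Cyp51: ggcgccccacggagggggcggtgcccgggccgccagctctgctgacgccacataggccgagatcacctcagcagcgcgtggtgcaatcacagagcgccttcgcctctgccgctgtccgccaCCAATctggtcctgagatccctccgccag
Nsdhl: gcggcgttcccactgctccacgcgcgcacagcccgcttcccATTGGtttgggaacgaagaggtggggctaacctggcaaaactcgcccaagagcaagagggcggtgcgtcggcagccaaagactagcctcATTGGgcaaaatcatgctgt
Hmgcs1: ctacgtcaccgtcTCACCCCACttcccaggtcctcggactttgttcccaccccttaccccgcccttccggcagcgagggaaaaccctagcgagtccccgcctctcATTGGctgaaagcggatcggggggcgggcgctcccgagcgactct
Nipal1: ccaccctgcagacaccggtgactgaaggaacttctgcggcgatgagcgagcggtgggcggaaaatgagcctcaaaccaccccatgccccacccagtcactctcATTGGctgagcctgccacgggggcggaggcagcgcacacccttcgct
Aldoc: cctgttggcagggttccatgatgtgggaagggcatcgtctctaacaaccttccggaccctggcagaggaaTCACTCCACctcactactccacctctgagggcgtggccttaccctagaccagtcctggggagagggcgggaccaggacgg
The CCAAT box nearest to the start of Cyp51 began 29 bases before it and that of Nipal1 47 bases before it. In Hmgcs1 the match to TCACNCCAC began 137 bases before the start, and in Aldoc 80 bases before it.

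Among the genes that control sterol levels or carry sterols, 1 of 18 measured was called (5.56%, against 0.123% of all genes). Stard4 (1429240_at, chromosome 18) encodes a soluble protein that moves cholesterol between membranes. It had 8.76, 9.25 and 9.09 in the corn oil gavage controls, against 8.44, 8.04 and 8.27 in the feed controls, a 1.72-fold higher signal (0.78 ± 0.13; adjusted p = 0.0162). Its other 2 probe sets differed by 0.85 and 0.59. The list's median difference was 0.06. Srebf2, which encodes SREBP-2, differed by 0.18 ± 0.117 (adjusted p = 0.669), Srebf1, which encodes SREBP-1, by 0.39 ± 0.241 (adjusted p = 0.647) and Insig1, which retains SREBP in the endoplasmic reticulum, by 0.29 ± 0.142 (adjusted p = 0.544). Insig2, the other retention protein, averaged 10.75 ± 0.16 in the corn oil gavage controls and 11.25 ± 0.22 in the feed controls (SD, n = 3 each), and the arrays did not overlap (-0.50 ± 0.139; adjusted p = 0.191). These 4 uncalled genes were chosen after their values were seen.

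Further called genes encode enzymes of neighbouring metabolism. Cers6, a ceramide synthase, had 6.80, 6.51 and 6.59 in the corn oil gavage controls, against 5.94, 5.67 and 5.25 in the feed controls (1.01 ± 0.183; adjusted p = 0.029). Feed control 29 was the lowest, and the call held in 1 of the 6 fits that left out an array, that without feed control 27. Rdh11, a retinol dehydrogenase, had 8.86, 8.71 and 8.86 in the corn oil gavage controls and 8.26, 7.81 and 8.02 in the feed controls (0.78 ± 0.124; adjusted p = 0.0123). A further probe set of Rdh11 differed by 0.72. Cyb5r3, the reductase that feeds electrons to cytochrome b5 for desaturases and sterol oxidases, had 11.50, 11.55 and 11.67 in the corn oil gavage controls, against 11.28, 11.02 and 11.12 in the feed controls (0.44 ± 0.0831; adjusted p = 0.041). It had the smallest difference of the called genes. Of its other 3 probe sets, 2 differed by 0.34 and 0.54 and 1 by -0.17. The last of these was much dimmer, at 5.37 in the corn oil gavage controls and 5.53 in the feed controls. It replaces the chosen set (1422185_a_at) when probe sets of suffix _a_at, _s_at or _x_at are left out.

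Nipal1, a member of a family of magnesium transporters, had the largest difference of the called genes. Its signal (1453345_at, chromosome 5) was 7.78, 8.11 and 7.76 in the corn oil gavage controls, against 6.66, 6.08 and 6.32 in the feed controls, 2.88-fold higher (1.53 ± 0.168; adjusted p = 0.000452). A second probe set differed by 1.10. Bid (1417045_at, chromosome 6), a member of the BCL2 family that promotes apoptosis at mitochondria, had 5.87, 6.28 and 6.01 in the corn oil gavage controls, against 5.03, 4.74 and 5.19 in the feed controls (1.07 ± 0.126; adjusted p = 0.000619). The groups lay far apart relative to their SDs of 0.21 and 0.23, but the feed control values were not far above the array medians of 4.25 to 4.35. Its second probe set, also dim at 5.03 in the corn oil gavage controls and 4.69 in the feed controls, differed by 0.34. Nipal1 and Bid were called in all 22 alternative fits, in which the difference of Nipal1 ranged from 1.31 to 1.68 and that of Bid from 0.70 to 1.17.

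Gstm2 (1416411_at, chromosome 3), a mu-class glutathione S-transferase that conjugates reactive compounds, had 9.14, 8.94 and 9.12 in the corn oil gavage controls, against 8.37, 8.34 and 8.25 in the feed controls. The groups did not overlap and both were tight (0.75 ± 0.105; adjusted p = 0.0045). It was the 1 called gene that was also called higher in 2,3-benzofuran gavage against the feed chemicals, by 1.28 ± 0.0854 (adjusted p = 1.34e-08). The feed chemicals were far apart, with means of 10.34 for 1,5-naphthalenediamine, 8.62 for N-(1-naphthyl)ethylenediamine and 9.06 for pentachloronitrobenzene. The mean was 10.63 with 2,3-benzofuran, so 1,5-naphthalenediamine feed lay near it and above the corn oil gavage controls (9.07). Of the 20 glutathione S-transferases measured, Gstm2 was the only one called (5%, against 0.123% of all genes). In 11 the unadjusted p was below 0.05, against 1152 of all 12169 genes, and the median difference was 0.21. The neighbours of Gstm2 in the family, Gstm3 (0.78 ± 0.255; adjusted p = 0.294) and Gstm5 (0.36 ± 0.112; adjusted p = 0.26), did not overlap between the groups. Whether sequence shared between mu-class genes let transcripts of one reach probes of another was not tested.

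The other 4 called genes have varied roles. Dclk3, a kinase of the doublecortin-like family, had 6.06, 6.43 and 6.67 in the corn oil gavage controls, against 5.52, 5.26 and 5.42 in the feed controls (0.99 ± 0.149; adjusted p = 0.00746). Vegfb, a growth factor of the vascular endothelial growth factor family, had 6.34, 6.18 and 6.27 in the corn oil gavage controls and 5.59, 5.44 and 5.36 in the feed controls (0.80 ± 0.144; adjusted p = 0.0284). Both groups were tight in each gene, apart from a wider spread of Dclk3 in the corn oil gavage controls (SD 0.31). Gamt, which methylates guanidinoacetate to creatine, had 10.09, 10.18 and 10.42 in the corn oil gavage controls, against 9.81, 9.52 and 9.50 in the feed controls (0.62 ± 0.109; adjusted p = 0.0252). Aldoc, a glycolytic aldolase, had 7.08, 7.04 and 6.94 in the corn oil gavage controls and 6.40, 6.39 and 6.50 in the feed controls (0.59 ± 0.105; adjusted p = 0.0281).

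Across all 18 arrays, the feed controls were the lowest group in most of the called genes. In 9 of the 15 (Nipal1, Bid, Cers6, Dclk3, Cyp51, Vegfb, Stard4, Gstm2 and Aldoc) the 3 feed control arrays lay below all of the other 15 arrays, those of the feed chemicals included. The 15 were called by adjusted p on the same feed control values, and in each the feed control arrays lay below the corn oil arrays. Among all 955 genes with feed below corn oil, 362 (37.9%) had the feed controls lowest of all 18. Those 955 were not picked for the size of the difference relative to its spread, so their share is not a like baseline for the 15. The corn oil gavage controls were the highest of all 18 arrays in 0 of the 15, and in 17 of the 12169 genes tested (0.14%). In Nipal1 the 12 chemical arrays ran from 7.29 to 8.43 with a median of 7.75, against 7.76 to 8.11 in the corn oil gavage controls and 6.08 to 6.66 in the feed controls. In Bid they ran from 6.06 to 6.45, and in Aldoc from 7.19 to 7.78, where every chemical array was above the highest corn oil gavage control at 7.08. The medians of the tested genes were 6.63 to 6.74 in the chemical arrays, 6.50 to 6.52 in the corn oil gavage controls and 6.34 to 6.51 in the feed controls, and the part of this shift in the order was not tested.

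The remaining called genes did not have that order. Nsdhl, Cyb5r3 and Gamt missed it by 1 array, with 11 of the 12 chemical arrays above the highest feed control, while Sqle and Rdh11 had 9 and Fdps 8 of 12 above it. Sqle had 6.96 to 7.44 with N-(1-naphthyl)ethylenediamine, against 8.11 to 8.59 in the corn oil gavage controls and 6.99 to 7.51 in the feed controls, so the lowest array was one of that feed chemical. Pentachloronitrobenzene arrays of Sqle, at 8.62 to 9.59, lay above all corn oil gavage controls. Rdh11 had 7.44 to 7.63 with N-(1-naphthyl)ethylenediamine, lower than each feed control, and Fdps had 9.73 to 10.37 there, against 10.02 to 10.52 in the feed controls.

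**Figure D3:**
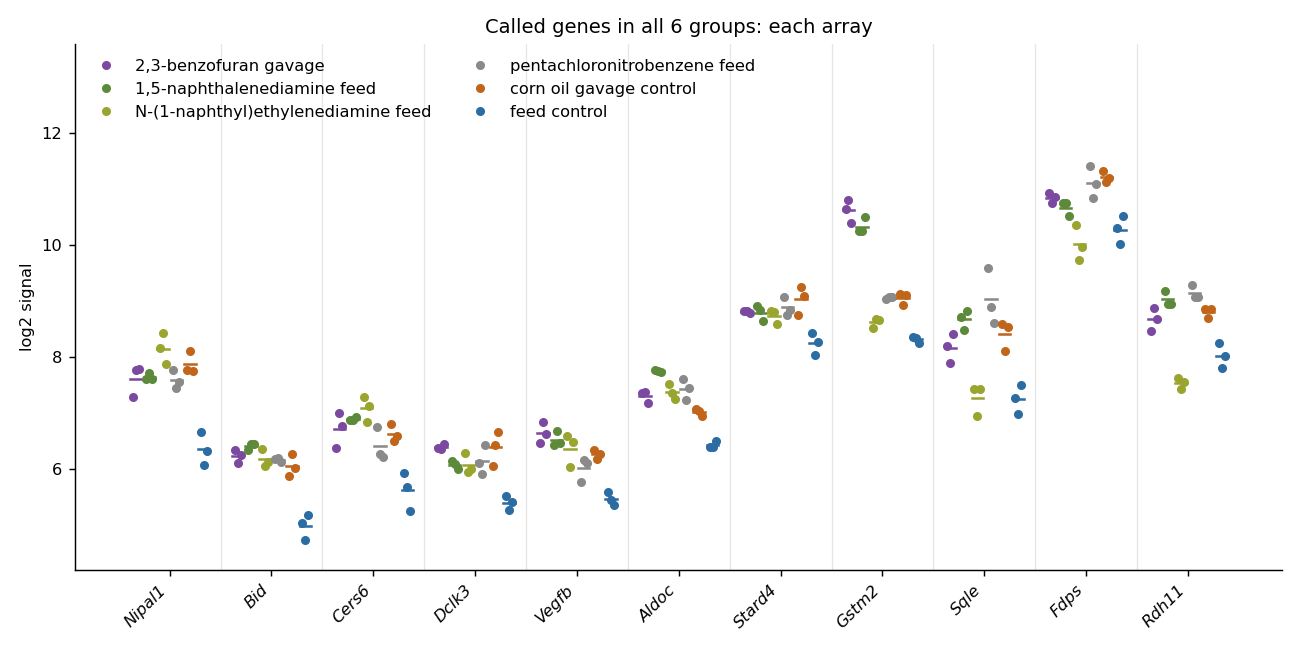
Log2 signal of 11 called genes in all 6 groups, with 1 point per array and a bar at the mean of 3 arrays, in the order of the legend from the chemicals to the corn oil gavage control and the feed control. In the first 8 genes the 3 feed control arrays are the lowest of the 18, and in Sqle, Fdps and Rdh11 arrays of N-(1-naphthyl)ethylenediamine reach as low or lower.

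The other gene groups were described through 34 lists of liver pathways and 11 lists of cell type markers. Besides cholesterol synthesis, sterol control and the glutathione S-transferases, none had a called member. Their median differences ran from -0.26 in male-biased liver genes to 0.61 in female-biased liver genes, beside 0.04 over all genes. Of all 12169 genes 60.3% had a difference above 0 and 1152 an unadjusted p below 0.05, to set beside the list counts below.

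**Figure D4:**
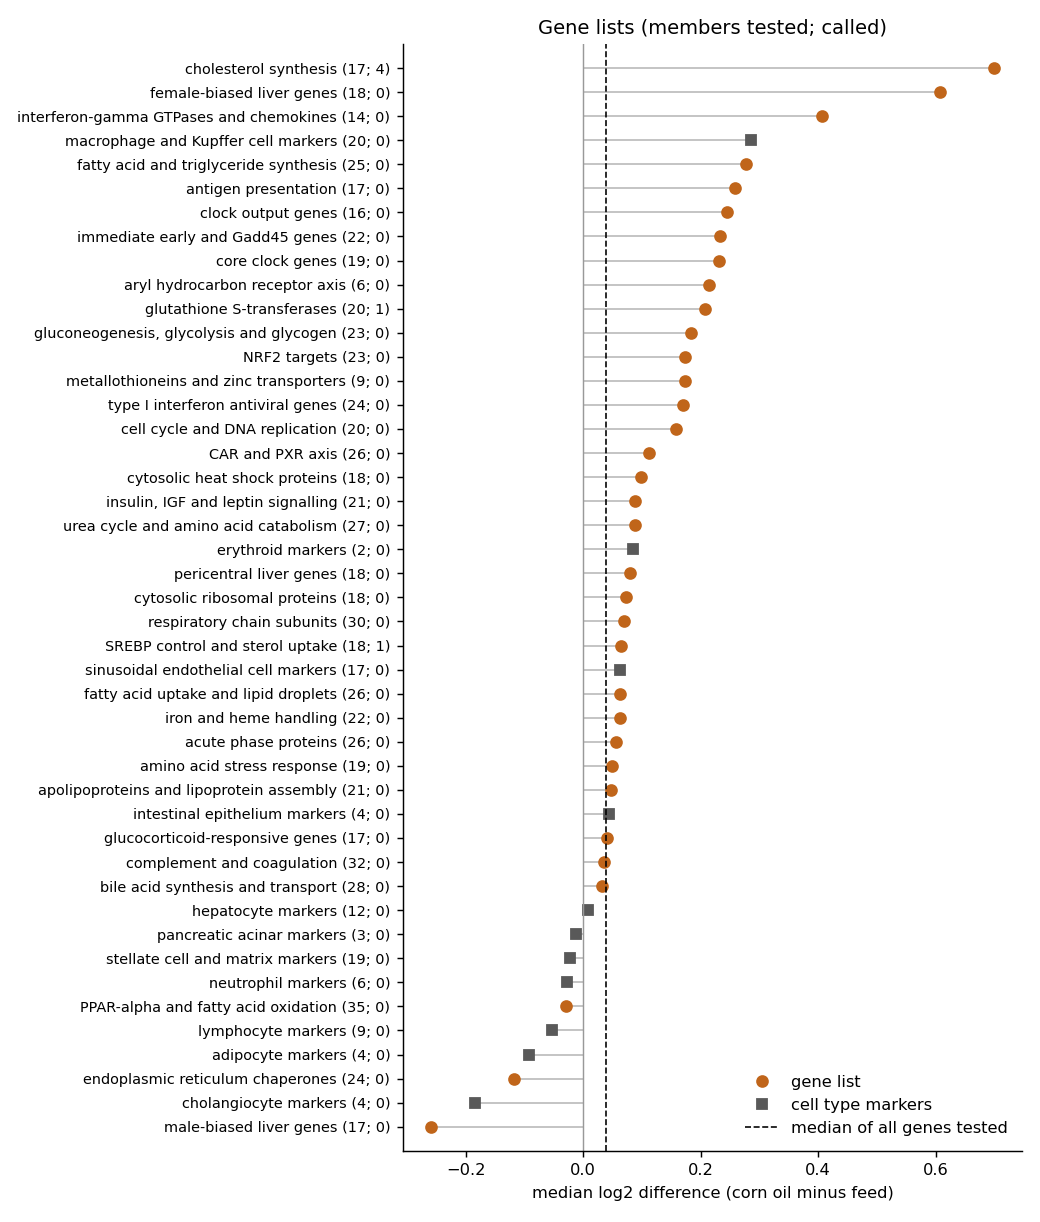
Median log2 difference (corn oil gavage control minus feed control) of each gene list (circles) and each list of cell type markers (squares), with the number of members tested and called in brackets and the median of all genes tested (0.04) as a dashed line. Cholesterol synthesis has the highest median, 0.70, and male-biased liver genes the lowest, -0.26.

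Fatty acid and triglyceride synthesis had 25 members measured, 0 called, 15 with an unadjusted p below 0.05 and a median difference of 0.28. Above 0 were 23 of the 25 differences, against 60.3% of all genes. Acly, which makes cytosolic acetyl-CoA for fatty acid and sterol synthesis, had 10.98, 10.98 and 11.55 in the corn oil gavage controls, against 10.86, 9.97 and 10.50 in the feed controls (0.73 ± 0.181; adjusted p = 0.131). Fasn, fatty acid synthase, had 10.99, 10.66 and 11.09 in the corn oil gavage controls and 10.50, 10.12 and 10.13 in the feed controls (0.66 ± 0.169; adjusted p = 0.154). The groups of both genes did not overlap, and feed control 28 was the lowest array in each. Fads1, a desaturase of polyunsaturated fatty acids, differed by 0.43 ± 0.113 (adjusted p = 0.16). Thrsp, a regulator of lipogenesis chosen after its value was seen, differed by 1.19 ± 0.317 (adjusted p = 0.175), with feed control 28 at 9.17 and the other feed controls at 10.50 and 10.60. Elovl3, a fatty acid elongase with male-biased expression in mouse liver, went the other way, with 5.61, 4.83 and 5.36 in the corn oil gavage controls, against 6.87, 7.82 and 6.13 in the feed controls (-1.67 ± 0.37; adjusted p = 0.0922).

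PPAR-alpha targets and fatty acid oxidation had a median difference of -0.03 over 35 measured members, of which 17 were above 0 and 4 had an unadjusted p below 0.05. Acot3, a peroxisomal acyl-CoA thioesterase, had 9.71, 9.62 and 10.05 in the corn oil gavage controls, against 9.31, 8.11 and 7.64 in the feed controls (1.44 ± 0.296; adjusted p = 0.0713). Feed control 27 lay near the corn oil gavage controls and the other feed controls far below. Acot3 was called in 1 of the 6 fits that left out a control array, that without feed control 27 (adjusted p = 0.000596), and the adjusted p reached 0.356 in the others. Acot4, a related thioesterase, had the same layout (0.59 ± 0.178; adjusted p = 0.247). Fgf21, a fasting hormone, had 6.14, 6.04 and 5.16 in the corn oil gavage controls, against 6.57, 7.59 and 6.20 in the feed controls (-1.01 ± 0.378; adjusted p = 0.384). Pdk4, which shuts off pyruvate oxidation in fasting, had 7.90, 4.75 and 4.92 in the corn oil gavage controls and 8.49, 9.25 and 5.90 in the feed controls, so both groups were split (-2.02 ± 0.853; adjusted p = 0.459).

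Genes of fatty acid uptake and lipid droplets had a median difference of 0.06 over 26 members. Cd36, a fatty acid transporter, had 7.62, 7.81 and 8.17 in the corn oil gavage controls, against 7.57, 6.49 and 6.07 in the feed controls (1.16 ± 0.306; adjusted p = 0.171), again with feed control 27 next to the corn oil gavage controls. Among 21 apolipoprotein and lipoprotein assembly genes, with a median of 0.05, Pltp, which transfers phospholipids between lipoproteins, differed by 0.63 ± 0.145 (adjusted p = 0.0948). Angptl8, a secreted inhibitor of lipoprotein lipase action that responds to feeding, differed by 1.17 ± 0.346 (adjusted p = 0.232), with 8.27, 8.86 and 8.51 in the corn oil gavage controls and 7.19, 6.87 and 8.04 in the feed controls. The 28 bile acid genes had a median of 0.03. Klb, the co-receptor through which the gut hormone FGF15 acts on liver, differed by 0.64 ± 0.137 (adjusted p = 0.0902), Abcb4, the phospholipid exporter of bile, by -0.35 ± 0.115 (adjusted p = 0.306) and Cyp7b1, an oxysterol hydroxylase, by -0.50 ± 0.182 (adjusted p = 0.365). Cyp7a1, the rate-limiting enzyme of bile acid synthesis, chosen after its value was seen, had 8.05, 7.42 and 7.86 in the corn oil gavage controls, against 7.71, 5.69 and 6.54 in the feed controls, and overlapped (1.13 ± 0.536; adjusted p = 0.525).

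Sex-biased liver genes, which in mice follow the pattern of growth hormone release, were more spread among the feed controls than among the corn oil gavage controls. The 18 female-biased genes measured had a median difference of 0.61 with 16 above 0 and 10 at an unadjusted p below 0.05, and the 17 male-biased genes a median of -0.26 with 3 above 0 and 5 at that p. Their mean log2 signal was 8.41, 8.88 and 8.72 for the female-biased genes in the corn oil gavage controls, against 8.54, 7.43 and 7.82 in the feed controls. For the male-biased genes it was 7.58, 7.31 and 7.33 in the corn oil gavage controls, against 7.90, 8.19 and 7.45 in the feed controls. All of the mice were labelled female, and feed control 28 had the lowest female-biased and the highest male-biased mean. Hao2, a peroxisomal hydroxy acid oxidase, had 10.15, 10.18 and 10.29 in the corn oil gavage controls, against 9.60, 7.41 and 8.97 in the feed controls (1.54 ± 0.477; adjusted p = 0.26). Fmo2, a flavin monooxygenase, differed by 0.97 ± 0.211 (adjusted p = 0.0902) and Slc22a27, an organic anion transporter, by 0.78 ± 0.249 (adjusted p = 0.285). Hsd3b5, a steroid-metabolising enzyme typical of male mouse liver, had 5.26, 4.01 and 4.34 in the corn oil gavage controls and 6.12, 7.11 and 5.08 in the feed controls (-1.57 ± 0.444; adjusted p = 0.208). Corn oil gavage control 24 lay below its array median of 4.33, the level used to filter low signal, so this difference is not a measured size. Serpina12, a secreted serpin, differed by -1.03 ± 0.377 (adjusted p = 0.363) and Cyp2d9, a male-biased cytochrome P450, by -0.62 ± 0.228 (adjusted p = 0.365).

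Clock genes split the animals within each group. Dbp, an output factor whose transcript swings widely over the day in liver, had 5.40, 10.08 and 10.33 in the corn oil gavage controls, against 4.00, 4.11 and 7.53 in the feed controls. Corn oil gavage controls 24 and 25 were far above the rest, feed control 29 was intermediate, and the groups overlapped (3.39 ± 1.31; adjusted p = 0.406). Feed controls 27 and 28 lay below the array medians of 4.25 to 4.35, under the level used to filter low signal. The difference of Dbp is therefore not a measured size. Arntl, the partner of CLOCK in the positive limb, had 7.57, 5.69 and 5.27 in the corn oil gavage controls, against 7.99, 7.48 and 6.86 in the feed controls (-1.27 ± 0.406; adjusted p = 0.285). Npas2, a relative of CLOCK, had 4.55, 3.00 and 3.63 in the corn oil gavage controls and 5.04, 5.00 and 4.18 in the feed controls (-1.01 ± 0.348; adjusted p = 0.324). Values of Npas2 below the array medians of 4.25 to 4.35, those of corn oil gavage controls 24 and 25 and feed control 29, lie under the level used to filter low signal, so this difference is not a measured size. Cry2, a repressor of the loop, differed by 0.64 ± 0.216 (adjusted p = 0.316), and Per1, another repressor that glucocorticoids induce, by 0.55 ± 0.284 (adjusted p = 0.563). The same 2 corn oil gavage controls were the lowest in Arntl and the highest in Dbp. Of the 19 core clock genes 8 had an unadjusted p below 0.05 and 0 were called, with a median of 0.23. Upp2, a clock output enzyme of uridine breakdown, differed by 1.18 ± 0.394 (adjusted p = 0.312). The hour of liver collection is not given here. With the clock gene index as a covariate 15 genes were called higher, 11 of them among the 15 above.

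**Figure D5:**
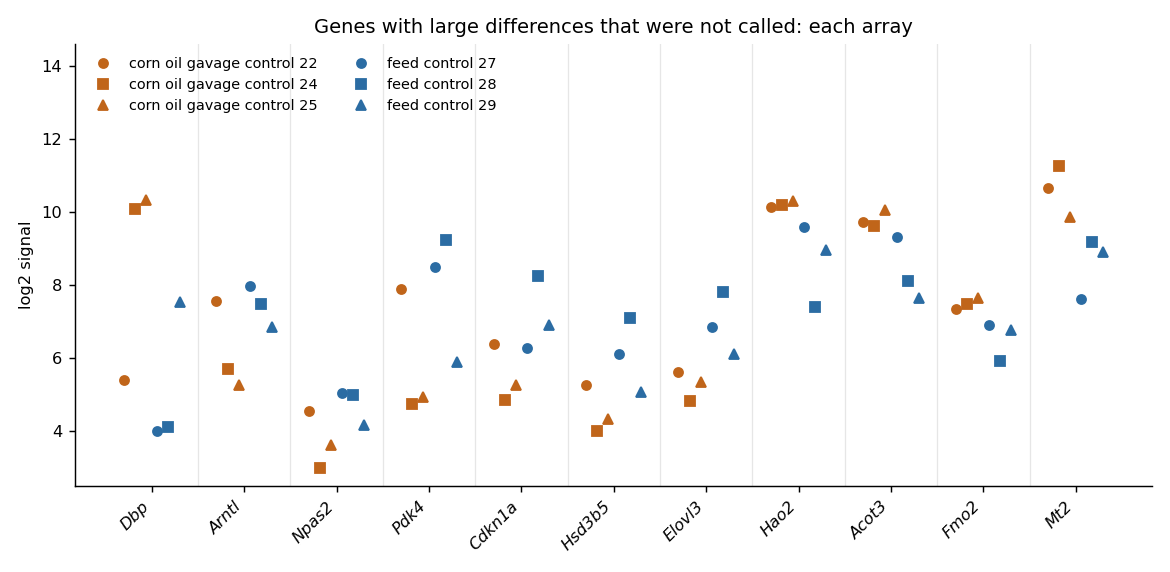
Log2 signal of 11 genes with differences of at least 0.97 in size that were not called, with 1 symbol per array, corn oil gavage controls (orange) left of feed controls (blue). Dbp is high in corn oil gavage controls 24 and 25 (10.08 and 10.33) and feed control 28 is the lowest array in Hao2 (7.41) and the highest in Hsd3b5 (7.11). Dbp, Npas2 and Hsd3b5 have values below the array medians, so their differences are not measured sizes.

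Interferon-responsive genes had small positive differences and no call. The 14 interferon-gamma GTPases and chemokines measured had a median of 0.41. At an unadjusted p below 0.05 were 9 of the 14, against 1152 of all 12169 genes. Cxcl11, a chemokine, had 4.72, 4.73 and 4.97 in the corn oil gavage controls, against 4.30, 4.48 and 4.12 in the feed controls (0.51 ± 0.113; adjusted p = 0.0922), and lay close to the array medians of 4.25 to 4.35. The guanylate-binding proteins Gbp7 and Gbp2 differed by 0.48 ± 0.133 (adjusted p = 0.191) and 0.41 ± 0.14 (adjusted p = 0.321), and Nlrc5, which activates MHC class I genes, by 0.52 ± 0.174 (adjusted p = 0.307). Of 17 antigen presentation genes all had differences above 0, with a median of 0.26. That share was 60.3% over all genes, and 28 of 30 respiratory chain subunits were above 0 too. Psme1, a proteasome activator subunit, differed by 0.36 ± 0.0988 (adjusted p = 0.18), Tap1, a peptide transporter, by 0.40 ± 0.119 (adjusted p = 0.238) and Psmb8, an immunoproteasome subunit, by 0.37 ± 0.132 (adjusted p = 0.342). The 24 type I interferon genes had a median of 0.17, led by Usp18, a deubiquitinase-like regulator (0.66 ± 0.21; adjusted p = 0.284), and Rtp4, an antiviral protein (0.51 ± 0.177; adjusted p = 0.327). In the contrast of 2,3-benzofuran with the feed chemicals these 3 lists had medians of -0.31, -0.15 and -0.30.

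Macrophage and Kupffer cell markers had positive differences beside those of the interferon genes: 19 of 20 were above 0 (60.3% over all genes) and the median was 0.29. Of the 20, 2 had an unadjusted p below 0.05, against 1152 of all 12169 genes, and 0 were called. The log2 of their summed signal was 12.65, 12.64 and 12.36 in the corn oil gavage controls, against 12.34, 12.61 and 11.97 in the feed controls, so feed control 28 was level with the corn oil gavage controls and feed control 29 the lowest. In bulk liver, fewer cells of a type and less RNA per cell cannot be told apart, and the part of these markers in the interferon difference was not tested. Mpeg1, a pore-forming protein of macrophages, differed by 0.34 ± 0.133 (adjusted p = 0.423) and Fcer1g, an Fc receptor chain, by 0.41 ± 0.167 (adjusted p = 0.445). The log2 sum of hepatocyte markers was 17.00, 17.05 and 17.02 in the corn oil gavage controls and 17.06, 17.07 and 16.94 in the feed controls. The mean log2 signal of these 12 markers was 12.76 to 12.84 in the corn oil gavage controls and 12.75 to 12.86 in the feed controls, far above the array medians of 4.25 to 4.35. Sinusoidal endothelial markers summed to 11.81, 11.96 and 11.73 in the corn oil gavage controls, against 11.82, 12.03 and 11.55 in the feed controls, and stellate cell and matrix markers to 11.95, 12.19 and 11.97 in the corn oil gavage controls, against 12.03, 12.28 and 11.88 in the feed controls. Medians of the other marker lists were -0.05 for lymphocytes, -0.03 for neutrophils, -0.18 for cholangiocytes, 0.09 for erythroid cells, -0.01 for pancreatic acinar cells, -0.09 for adipocytes and 0.04 for intestinal epithelium, with 2 to 9 members measured in each.

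Stress and hormone-responsive genes gave large but scattered values. Mt2, a metallothionein that binds zinc and is induced by glucocorticoids and inflammation, had 10.66, 11.25 and 9.85 in the corn oil gavage controls, against 7.63, 9.19 and 8.90 in the feed controls (2.02 ± 0.68; adjusted p = 0.316). The groups did not overlap, while in Mt1, its neighbour, they did: 12.09, 12.45 and 11.65 in the corn oil gavage controls and 10.12, 11.94 and 10.37 in the feed controls (1.25 ± 0.518; adjusted p = 0.448). Cdkn1a, the p21 cell cycle inhibitor, had 6.40, 4.85 and 5.26 in the corn oil gavage controls, against 6.28, 8.26 and 6.90 in the feed controls (-1.64 ± 0.53; adjusted p = 0.289), with feed control 28 the highest. The glucocorticoid-responsive list as a whole had a median of 0.04 over 17 genes. Of 22 immediate early and Gadd45 genes, with a median of 0.23, 8 had an unadjusted p below 0.05. Junb, an AP-1 subunit, differed by 1.07 ± 0.389 (adjusted p = 0.361), Gadd45a, a DNA damage and stress response gene, by 0.77 ± 0.29 (adjusted p = 0.384), Ier3 by 0.58 ± 0.173 (adjusted p = 0.246) and Ier5 by 0.39 ± 0.13 (adjusted p = 0.316). In endoplasmic reticulum chaperones the median was -0.12 over 24 genes, with Creld2 at -0.76 ± 0.359 (adjusted p = 0.52) and Derl3 at -0.53 ± 0.233 (adjusted p = 0.491), and feed control 28 the highest array in both.

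Drug-metabolising genes other than Gstm2 were not called. The 23 NRF2 targets had a median of 0.17, with Pgd, a dehydrogenase that supplies NADPH, at 0.39 ± 0.119 (adjusted p = 0.256) and Ugdh, which makes the sugar donor of glucuronidation, at 0.37 ± 0.143 (adjusted p = 0.4). The 26 genes of the CAR and PXR axis had a median of 0.11, led by Aldh1a7, an aldehyde dehydrogenase (0.37 ± 0.0866; adjusted p = 0.104). Cyp3a16 had 5.32, 7.82 and 5.45 in the corn oil gavage controls, against 7.03, 3.36 and 3.10 in the feed controls, and 1 array of each group decided its spread (1.70 ± 0.758; adjusted p = 0.494). Feed controls 28 and 29 lay below the array medians there, so that difference is not a measured size either. Cyp1a2, a target of the aryl hydrocarbon receptor, had 12.05, 12.24 and 12.39 in the corn oil gavage controls and 11.93, 11.80 and 12.20 in the feed controls (0.25 ± 0.126; adjusted p = 0.554). Tiparp, of the same receptor list, had a smaller p and was not called either (adjusted p = 0.477). Among 20 cell cycle and DNA replication genes, with a median of 0.16, the replication helicase subunits Mcm6 and Mcm5 differed by 0.61 ± 0.186 (adjusted p = 0.249) and 0.47 ± 0.155 (adjusted p = 0.297), Pcna, the replication clamp, by 0.32 ± 0.105 (adjusted p = 0.297) and Ccne1, cyclin E1, by -0.44 ± 0.123 (adjusted p = 0.194). Of 23 genes of glucose metabolism, with a median of 0.18, Ppargc1a, a coactivator of gluconeogenesis, differed by 1.04 ± 0.357 (adjusted p = 0.324), Pdk1, a pyruvate dehydrogenase kinase, by 0.56 ± 0.16 (adjusted p = 0.21) and Gbe1, the glycogen branching enzyme, by 0.47 ± 0.156 (adjusted p = 0.307). Medians of 0.03 to 0.09 were measured for complement and coagulation, acute phase proteins, iron and heme handling, the respiratory chain, cytosolic ribosomal proteins, pericentral genes, urea cycle and amino acid catabolism, the amino acid stress response and insulin signalling, with 0 members called in each. For cytosolic heat shock proteins the median was 0.10, for aryl hydrocarbon receptor genes 0.21 and for metallothioneins with zinc transporters 0.17.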

How the data were processed

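RNA from 1 liver per mouse was hybridised to Affymetrix Mouse 430_2 arrays, with Trizol extraction and RNeasy purification per the labels. The authors deposited 1 log2 signal for each of 45101 probe sets and 18 arrays. How these signals were background-corrected, normalized and summarised per probe set is not given in the sources used here. The unit was read from the values (2.21 to 14.66, none missing) and the nearly equal array medians (4.25 to 4.35).

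Probe sets were named through the platform annotation: 34945 had 1 gene, 932 several and 9211 none, and 13 control probe sets that carry a gene name were left out. Those above their array's median in at least 3 of the 18 arrays were kept, with 1 probe set per gene by highest mean. A model with 1 mean per group over all 18 arrays was fitted with limma 3.58.1 in R 4.3.3 (empirical Bayes with a mean-variance trend, 12 residual degrees of freedom). Genes were called at an adjusted p below 0.05. The scripts were tested on simulated data. Promoter windows came from RefSeq and were searched in Python 3.11.15.

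Named were the 12 called genes with the largest differences each way among those whose groups did not overlap, any called member of a list, and up to 4 members with the smallest p of a list without calls. Outside this rule, and with their values seen, stand the other 3 called genes (Gamt, Aldoc and Cyb5r3), Gstm5, Insig2 and the remaining cholesterol synthesis enzymes, so that all 17 measured are given. Per1 comes from the glucocorticoid list, and other exceptions are marked. The members and lists were chosen with earlier results of these data known. Alternatives covered normalization, centring, filters, probe set choice, moderation, array weights, covariates, thresholds and each control array left out. No replicate numbers are shared between the control groups and no scan or hybridisation batch is given. Precision is limited by the 3 arrays in each group.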

Additional observations from a re-analysis of the deposited data

How the results depend on the processing

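The 15 calls higher became 8 after quantile normalization (7 of the 15 among them), 8 with centred arrays (8 of the 15), 6 with only the control arrays in the fit (5 of the 15) and 5 at an adjusted p below 0.01. With the 5 arrays of highest 18S signal left out, an alternative chosen after seeing the data, 4 were left. The smaller number of arrays in 2 of these fits is by construction, and the cause of the others was not tested. With array weights 1 gene was called lower. The remaining settings on all animals gave 11 to 16 higher and 0 lower. Leaving out 1 control array gave 3 to 82 higher and 0 to 3 lower. In the contrast of 2,3-benzofuran with the feed chemicals, 376 calls lower became 587 after quantile normalization and 627 after centring, and array weights gave 1442 higher and 718 lower. Cyb5r3 reversed to -0.17 with probe sets of suffix _a_at, _s_at or _x_at left out. This leaves 1 other probe set, which is dimmer, at 5.37 in the corn oil gavage controls and 5.53 in the feed controls. Per1, never called, reversed to -0.0504 with the clock index as a covariate. The index holds Per1 itself, which ties the covariate to its difference but does not fix the sign. Dbp, Arntl and Npas2, also in the index, kept their sign in all 22 alternative fits. No paired analysis was possible because the control groups share no animal numbers. Values near or below the array medians, such as those of Cxcl11, Npas2 and Cyp3a16 and the low ones of Dbp and Hsd3b5, are limited by signal over background.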
